A study of Mus musculus with 10 samples.

Results

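The 8 genes described here encode the subunits of the transcription factor AP-1 and its partner Atf3: Fos, Fosb, Fosl1, Fosl2, Jun, Junb, Jund and Atf3. They were taken by name from the 45195 gene IDs of the deposited matrix. Each matched 1 ID, and all 8 were among the 15712 genes tested. On mm10 (GENCODE M21) the protein-coding genes lie as follows: Fos (ENSMUSG00000021250) at chr12:85473890-85477273 on the plus strand, Fosb (ENSMUSG00000003545) at chr7:19302696-19310051 on the minus strand, Fosl1 (ENSMUSG00000024912) at chr19:5447547-5455946 on the plus strand, Fosl2 (ENSMUSG00000029135) at chr5:32135801-32157842 on the plus strand, Jun (ENSMUSG00000052684) at chr4:95049034-95052222 on the minus strand, Junb (ENSMUSG00000052837) at chr8:84974484-84978718 on the minus strand, Jund (ENSMUSG00000071076) at chr8:70698949-70700616 on the plus strand and Atf3 (ENSMUSG00000026628) at chr1:191170296-191218039 on the minus strand. Their RNA was measured in neurites (axons and dendrites) of mouse cortical neurons cultured on a membrane with 3 µm pores, through which the neurites grow to the lower face. Cell bodies were swabbed off the upper face before lysis, and the libraries were made from poly(A) RNA by Smart-seq2, a method for small RNA inputs.

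The 10 libraries form 4 groups: knockout injured (2), knockout naive (2), wild-type injured (3) and wild-type naive (3). All neurons came from E16.5 embryonic cortex of C57BL/6 background. Knockout neurons carried 2 floxed Cpeb1 alleles (Cpeb1 flox/flox), wild-type neurons carried none, and both received at plating an AAV2 virus that expresses Cre from the ubiquitous CAG promoter. Cre therefore does not separate the genotypes, the floxed allele does. Injured neurites were scraped off the lower face on day 7, and what was there 24 hours later was lysed. Naive neurites were not scraped and were lysed at the same age of culture, day 8. Neurites collected after scraping can also be younger than naive ones, and age and injury cannot be told apart. Replicate libraries are not stated to be separate cultures, so p-values reflect the spread between these samples, which may be technical.

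AP-1 is a dimer of leucine-zipper proteins. Jun proteins can pair with themselves or with Fos proteins, while Fos proteins need a Jun partner, and the dimer binds short palindromes in promoters and enhancers. Fos, Fosb and Junb are classic immediate early genes, transcribed within minutes of calcium entry or growth factor signalling and carried on unstable mRNAs. Jun and Atf3 are also induced in neurons whose axons are cut, where they form part of the regeneration-associated programme described in peripheral nerves.

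The files carry no read counts, and the depth of each library is not known from them. Between 12231 and 13143 genes per library had a value of at least 1. Values are per length and scaled per library, taken as FPKM, so levels can be compared between genes. Neuronal markers were present throughout, with Tubb3 between 305.2 and 1291 in every library. The microglial genes Cx3cr1 and Tmem119 were listed at 0 in all 10 libraries. Astrocyte transcripts were present as well, Gfap at 243 and 256 in knockout injured, 161 and 83.0 in knockout naive, 187, 159 and 558 in wild-type injured and 104, 111 and 179 in wild-type naive libraries. Less RNA per cell and fewer cells of a type cannot be told apart in such bulk material. Wild-type injured replicate 3 stood somewhat apart, with a mean correlation of 0.839 with the other libraries against 0.867 to 0.898 for the rest.

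Cpeb1 itself was 1.14 and 3.15 in the libraries labelled knockout injured, 5.97 and 0.356 in those labelled knockout naive, 1.65, 13.8 and 22.6 in those labelled wild-type injured, and 7.16, 5.96 and 5.86 in those labelled wild-type naive. The library labelled knockout naive replicate 1 lay inside the wild-type naive range. Wild-type injured replicate 1 lay inside the knockout injured range. Every genotype difference below follows the labels. Values summed over a gene cannot separate reads of deleted exons from others.

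**Figure D1:**
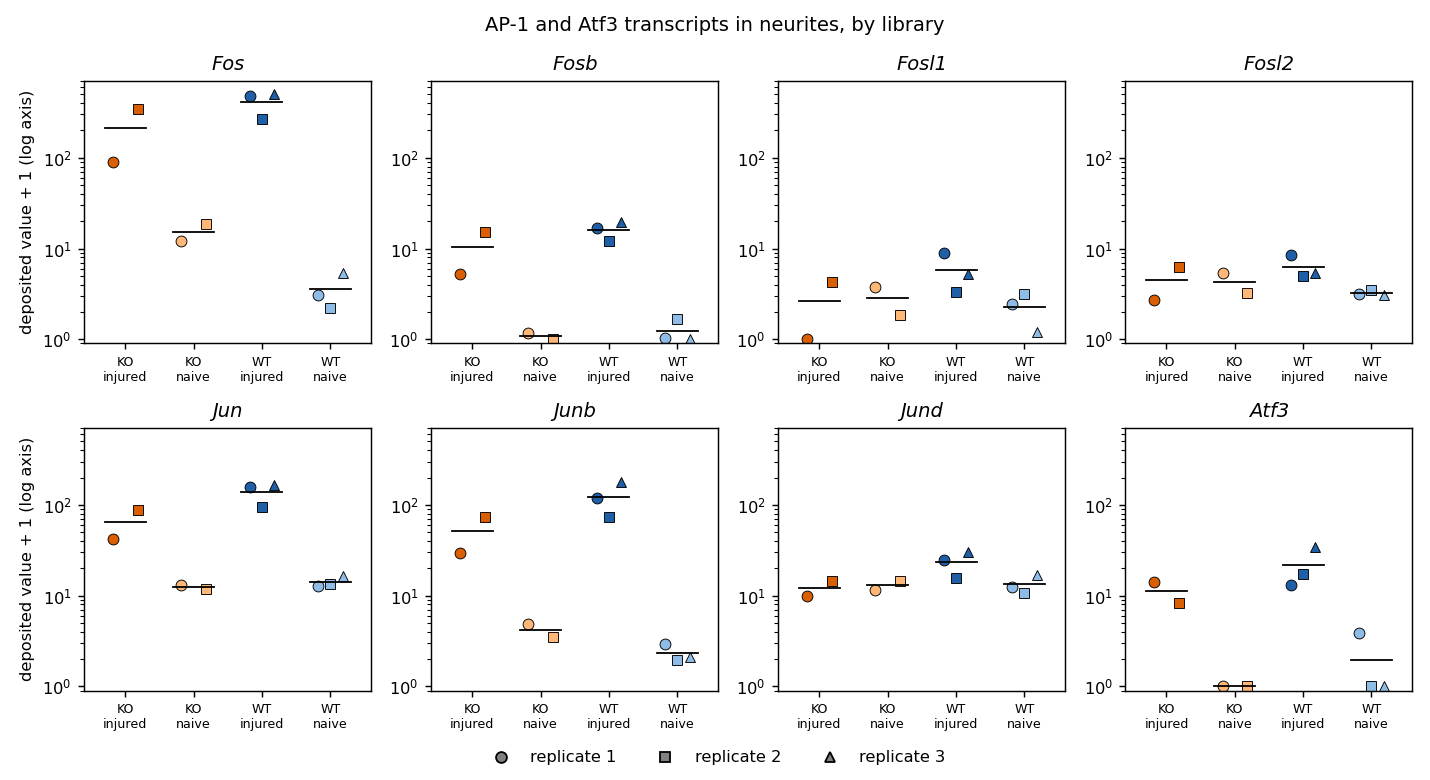
Deposited value + 1 (log axis) of each gene in every library; points are libraries, symbols mark the replicate number and black lines the mean of value + 1 per group. Fos spans 88.8 to 501 in the 5 injured libraries and 1.23 to 17.4 in the 5 naive libraries, whereas Jund stays between 8.995 and 29.1 in all 10.

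In wild-type neurites injury raised 5 of the 8 genes: Fos, Fosb, Jun, Junb and Atf3. Fos reached the highest level of any member and, among members with no library at 0, the largest ratio of group means. Fosl1, Fosl2 and Jund were higher on average in injured libraries but did not pass the test. In this comparison limma called 0.7% of all tested genes as higher at an adjusted p of 0.05 or less, 110 of 15712, and 39 as lower. With quantile normalization that split was 100 higher and 64 lower, and with the factor multiplied by the column total it was 104 and 70. All 8 members had log2 fold changes above 0, as did 50.6% of tested genes, with a median of 3.46 against 0.0092 over all tested genes. In 7 of the 8 every wild-type injured library lay above every wild-type naive library, which held for 9.78% of all tested genes.

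Fos, the prototype immediate early gene, had values of 478, 267 and 501 in wild-type injured libraries and 2.11, 1.23 and 4.34 in wild-type naive libraries. The ratio of the group means was 162. The 2 groups lay far apart, and the lowest injured library was far above the highest naive one. The log2 fold change was 6.91 ± 0.47 (SE, n = 3 and 3; limma adjusted p = 1.68e-05), on the scale of log2(value + 1), which understates the change of genes with low values.

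Fosb, a close relative whose truncated splice form is known for its persistence in stimulated neurons, had 16.0, 11.1 and 18.5 in wild-type injured libraries and 0.02, 0.658 and 0 in wild-type naive libraries. It was close to 0 in naive neurites and far below Fos in injured ones. The rise was 3.74 ± 0.57 in log2 units (limma adjusted p = 0.00935), a call lost on leaving out replicate 1 of the wild-type naive group (limma adjusted p = 0.0608) and with no filter on low values (limma adjusted p = 0.0664). With naive values at or near 0 its size depends on the pseudocount, and it ranged from 1.93 to 6.16 over the alternatives.

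Fosl1 (Fra-1), a Fos relative that lacks a strong activation domain, had 7.92, 2.34 and 4.19 in wild-type injured libraries and 1.45, 2.17 and 0.207 in wild-type naive libraries. The groups did not overlap but lay close together, and the change of 1.35 ± 0.70 (log2, SE) did not pass (limma adjusted p = 0.411). Of the Fosl1 exon bases 57.2% are shared with Ccdc85b on the other strand, which had 40.4, 38.6 and 77.1 in wild-type injured and 42.0, 23.7 and 44.1 in wild-type naive libraries. Smart-seq2 libraries do not keep the strand, so reads of these 2 genes cannot be told apart in the shared part. Fosl2 (Fra-2), usually the late and long-lived member, had 7.58, 3.97 and 4.42 in wild-type injured and 2.14, 2.46 and 2.11 in wild-type naive libraries. All injured values were higher, yet the change of 0.93 ± 0.55 (log2, SE) did not pass (limma adjusted p = 0.483).

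Among the Jun proteins the pattern was graded. Jun had 155, 92.6 and 165 in wild-type injured libraries and 11.6, 12.3 and 15.6 in wild-type naive libraries. It was the most abundant member in naive wild-type neurites together with Jund, and its log2 value rose by 3.26 ± 0.33 (limma adjusted p = 0.000477). Junb, a subunit that activates more weakly than Jun in many promoters, had 117, 72.3 and 178 in wild-type injured and 1.95, 0.937 and 1.13 in wild-type naive libraries. The naive level was well below that of Jun, while the injured levels of the 2 genes overlapped. The log2 value of Junb rose by 5.65 ± 0.45 (limma adjusted p = 7.48e-05). Jund, which is expressed constitutively in most cells, had 23.5, 14.6 and 29.1 in wild-type injured and 11.5, 9.80 and 15.8 in wild-type naive libraries. Its groups overlapped, and the change of 0.78 ± 0.38 (log2, SE) did not pass (limma adjusted p = 0.380).

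Jun, Junb and Jund overlap other genes on the opposite strand by 7.28%, 7.52% and 52.6% of their exon bases. The partner of Jund, Gm11175, had 8.32, 6.05 and 14.9 in wild-type injured and 4.37, 6.76 and 11.5 in wild-type naive libraries, so part of the Jund value may belong to it or the reverse. No transcript of another gene came within 95% identity of any member over at least 50% of the shorter transcript and 150 bases.

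Atf3, a stress-induced factor of the ATF/CREB branch that can pair with Jun, had 12.1, 16.47 and 33.2 in wild-type injured libraries. In wild-type naive libraries it had 2.89 in replicate 1 and was listed at 0 in replicates 2 and 3. No injured library was near the naive values. Its log2 value rose by 3.66 ± 0.65 (limma adjusted p = 0.0225). With 2 naive libraries at 0 this size depends on the pseudocount, and it ranged from 2.05 to 5.93 over the alternatives. The call did not hold when replicate 3 of the wild-type injured group was left out (limma adjusted p = 0.0676), or replicate 2 or 3 of the wild-type naive group (limma adjusted p = 0.116 and 0.102), with no filter (limma adjusted p = 0.107) and with a pseudocount of 0.1 (limma adjusted p = 0.0669).

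Fos, Jun and Junb passed in wild type under all 20 alternatives, leaving out any 1 of the 10 libraries included. Their log2 fold changes then ranged from 5.76 to 7.41 for Fos, from 2.94 to 3.52 for Jun and from 4.25 to 6.38 for Junb.

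**Figure D2:**
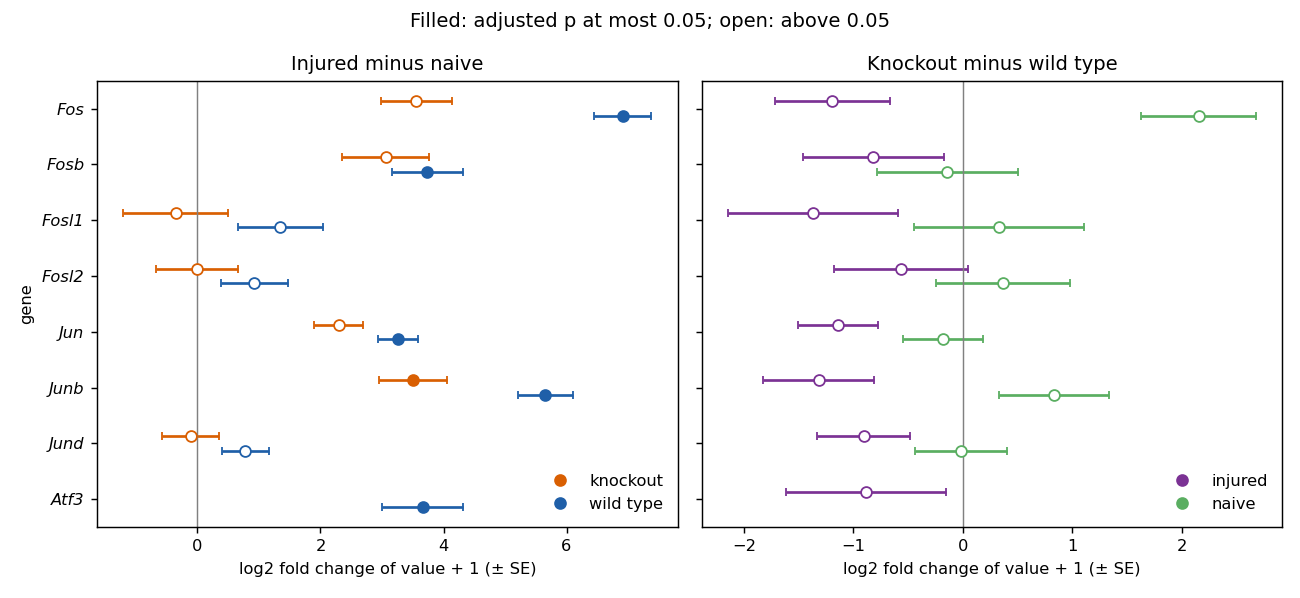
Log2 fold change of value + 1 with its SE for each gene, injured minus naive on the left and knockout minus wild type on the right; filled points passed at an adjusted p of 0.05 or less. In wild type 5 genes are filled and in the knockout Junb, and no point is filled on the right. Atf3 is not drawn for knockout injury or for naive neurites, since both knockout naive libraries listed it at 0.

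Promoter sequences of the 5 genes that rose are shown because these genes moved together, and because AP-1 and ATF proteins bind related short motifs. They come from RefSeq (GRCm38.p6), run from 120 bases before to 20 bases after the annotated start, and stand in the direction of the gene. Capitals mark matches to TGACG, the core of the cyclic AMP response element and contained in its full form TGACGTCA, on either strand, or to TGACATCA, an AP-1-like variant. These motifs were chosen after the sequences were seen. The promoter table matched 7 of the 8 members, all but Fosl1.
Fos, chr12:85473770-85473909, plus strand: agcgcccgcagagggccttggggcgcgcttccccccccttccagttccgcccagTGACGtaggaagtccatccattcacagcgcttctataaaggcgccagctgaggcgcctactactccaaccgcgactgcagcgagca
Fosb, chr7:19310026-19310165, minus strand: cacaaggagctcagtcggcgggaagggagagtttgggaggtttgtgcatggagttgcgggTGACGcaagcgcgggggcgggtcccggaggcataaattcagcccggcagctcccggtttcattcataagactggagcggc
Junb, chr8:84978729-84978868, minus strand: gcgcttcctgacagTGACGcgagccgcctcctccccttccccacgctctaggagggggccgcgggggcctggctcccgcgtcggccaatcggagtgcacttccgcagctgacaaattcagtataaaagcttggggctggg
Jun, chr4:95052203-95052342, minus strand: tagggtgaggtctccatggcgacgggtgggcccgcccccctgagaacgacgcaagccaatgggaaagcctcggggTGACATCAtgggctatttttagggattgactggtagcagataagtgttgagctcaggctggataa
Atf3, chr1:191183314-191183453, minus strand: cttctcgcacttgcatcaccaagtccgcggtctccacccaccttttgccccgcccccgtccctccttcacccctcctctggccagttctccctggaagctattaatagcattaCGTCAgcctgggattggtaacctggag

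Within 250 bases before and 50 after the start, TGACG was found in Fos, Fosb, Junb and Atf3 and not in Jun, Jund or Fosl2. It is present on either strand in 20.8% of the 32851 promoters of the same length. The Fos match nearest the start begins 66 bases before it, that of Fosb 60 and that of Junb 106 bases before it. TGACATCA, found in Jun at 45 bases before the start, is present in 3.62% of promoters. In this window the canonical AP-1 site TGAGTCA and the full element TGACGTCA were found in none of the 7 members (5.2% and 1.79% of promoters). Neither was the CArG box of serum response factor (1.63%). Bases further upstream were not searched, so nothing is shown about such sites there. TATAAA was found in Fos and Junb (13.6%), in Junb after the RefSeq start. That start, position 84978748 of chromosome 8, lies upstream of the GENCODE start at 84978718. TGATGNAA, a composite C/EBP and ATF motif, was found in Atf3 (3.97%), 110 bases before the start. The RefSeq start used for Jund lies at position 70697739 of chromosome 8, upstream of the GENCODE gene, which begins at 70698949. The GENCODE gene of Atf3 reaches upstream of the start shown, to position 191218039 of chromosome 1. For Fosl2 the RefSeq start, position 32136472 of chromosome 5, lies inside the GENCODE gene, which begins at 32135801. The window searched for Fosl2 does not reach that GENCODE start.

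In neurites labelled as Cpeb1 knockout Junb rose after injury, and Fos, Fosb, Jun and Atf3 were higher in both injured libraries than in both naive ones without passing the threshold. The comparison called 0.0255% of tested genes as higher, 4 of 15712. An unadjusted p under 0.05 was found for 5 of the 8 members, and for 5.73% of tested genes. The absence of overlap, found for 5 of the 8 members, applied in this direction to 13.5% of all tested genes, since each group holds only 2 libraries.

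Junb had 28.1 and 72.8 in knockout injured libraries and 3.85 and 2.47 in knockout naive libraries. Its log2 value rose by 3.50 ± 0.55 (SE, n = 2 and 2; limma adjusted p = 0.0475). The call passed in 4 of 20 alternatives and was lost in 16, with adjusted p-values from limma between 0.0268 and 0.717 over all of them. Leaving out any library other than wild-type injured replicate 3 ended it, and without knockout injured replicate 2 the value was 2.83.

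Fos had 88.8 and 340 in knockout injured libraries and 10.9 and 17.4 in knockout naive libraries. The injured libraries lay far from each other, and the log2 fold change of 3.56 ± 0.58 stood at the edge of the threshold (limma adjusted p = 0.0551). It passed in 6 of 20 alternatives, among them leaving out knockout injured replicate 1 (limma adjusted p = 0.031) and leaving out replicate 3 of the wild-type injured group (limma adjusted p = 0.0452). Jun had 40.9 and 87.3 in knockout injured and 12.1 and 10.8 in knockout naive libraries, a change of 2.30 ± 0.40 in log2 units (limma adjusted p = 0.0874). It passed with median-ratio scaling and with the factor multiplied by the column total (limma adjusted p = 0.0497 and 0.0457).

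Fosb had 4.29 and 14.3 in knockout injured libraries and 0.166 and 0 in knockout naive libraries, and it did not pass (limma adjusted p = 0.313). Atf3 had 13.03 and 7.21 in knockout injured libraries and was listed at 0 in both knockout naive libraries (limma adjusted p = 0.336). No fold is given for it, because a fold against 0 would depend on the pseudocount. Fosl1 had 0 and 3.33 in knockout injured and 2.76 and 0.869 in knockout naive libraries. Fosl2 had 1.74 and 5.31 in knockout injured and 4.34 and 2.27 in knockout naive libraries, and Jund had 8.995 and 13.5 in knockout injured and 10.5 and 13.6 in knockout naive libraries. All of these overlapped between injured and naive libraries (limma adjusted p = 1 for each).

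Whether the response differed between genotypes was tested by subtracting the wild-type injury effect from the knockout one. No member passed, and limma called 0.0% of all tested genes. An unadjusted p under 0.05 with a value below 0 was found for 2 members, Fos and Junb, and for 4.3% of tested genes. With no filter on low values 13 genes were called and without a mean-variance trend 3, none of them a member. All genes together were shifted by -0.13 in this difference, and by 0.017 with quantile normalization. Fos had the largest difference, -3.35 ± 0.74 (log2, SE, n = 2, 2, 3 and 3; unadjusted p = 0.000608, limma adjusted p = 0.595), followed by Junb with -2.15 ± 0.71 (unadjusted p = 0.00988, limma adjusted p = 0.791). Leaving out a library gave -4.31 to -2.39 for Fos and -2.82 to -1.48 for Junb. The difference was below 0 for all 8 members, as for 56.8% of tested genes, and for Atf3 it was above 0 with a pseudocount of 0.1.

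Both sides of the Fos difference can be read from the values. In naive neurites Fos had 10.9 and 17.4 in the knockout and 2.11, 1.23 and 4.34 in wild type, so that both knockout libraries lay above all wild-type ones. The genotype difference, knockout minus wild type, was 2.15 ± 0.53 (log2, SE; unadjusted p = 0.00129, limma adjusted p = 0.470). Without the library labelled knockout naive replicate 1, whose Cpeb1 value was in the wild-type range, it was 2.47 (limma adjusted p = 1). Junb was likewise higher in both knockout naive libraries (3.85 and 2.47) than in any wild-type naive library (1.95, 0.937 and 1.13), a difference of 0.83 ± 0.50 (limma adjusted p = 1). Prdx2, which overlaps 7.52% of the Junb exon bases on the other strand, had 791 and 678 in knockout naive and 554, 518 and 540 in wild-type naive libraries, the same separation at far higher values. Its part in the Junb values was not tested. Of all tested genes 14.1% were higher in the knockout naive libraries without overlap. Of the other 6 members none separated the genotypes in naive neurites, where 0.146% of tested genes and no member were called by limma. Fos was the 1 member with an unadjusted p under 0.05, against 3.76% of tested genes.

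In injured neurites all 8 members had lower mean log2 values in the knockout than in wild type, as did 53.1% of all tested genes. None passed in limma, and 0.261% of tested genes were called. Fos, Jun and Junb had an unadjusted p under 0.05, which together with a lower value was found for 5.95% of tested genes. Jun had 40.9 and 87.3 in the knockout and 155, 92.6 and 165 in wild type, without overlap, a difference of -1.14 ± 0.37 (log2, SE; unadjusted p = 0.00808, limma adjusted p = 0.305). Jund also did not overlap, with 8.995 and 13.5 in the knockout and 23.5, 14.6 and 29.1 in wild type (-0.91 ± 0.42, limma adjusted p = 0.480). Such a gap in this direction was found for 12.2% of tested genes. Both gaps were narrow, 87.3 against 92.6 for Jun and 13.5 against 14.6 for Jund. The edge libraries were knockout injured replicate 2 and wild-type injured replicate 2, with scaling factors in the deposited values of 0.921 and 1.03. Divided by these factors, the knockout value lies above the wild-type one for Jun and for Jund, so neither gap remains. Overlap under other scalings was not tested. Fos, with 88.8 and 340 in the knockout and 478, 267 and 501 in wild type, overlapped (-1.20 ± 0.53, limma adjusted p = 0.453), as did Junb with 28.1 and 72.8 in the knockout and 117, 72.3 and 178 in wild type (-1.32 ± 0.50, limma adjusted p = 0.380). Without knockout injured replicate 1 the differences were -0.23 for Fos, -0.60 for Jun, -0.65 for Junb and -0.64 for Jund.

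The spread among injured libraries was shared by the members. Knockout injured replicate 1 held the lowest value of its group for 7 of the 8 genes, with Atf3 the exception. Replicate 2 exceeded it by 1.92 on the log2 scale for Fos, 1.53 for Fosb, 1.08 for Jun and 1.34 for Junb, signed differences above those of 95.5%, 92.7%, 87.3% and 90.8% of tested genes between the same libraries. Among wild-type injured libraries replicate 2 held the lowest value for 7 members, and replicate 3 held the highest for 6, Fosl1 and Fosl2 being highest in replicate 1. Replicate 3 minus replicate 2 exceeded 80.0% of tested genes for Fos and 78.2% for Jun, but replicate 3 minus replicate 1 only 54.0% and 55.0%. The scaling factor in the deposited values was 1.23 in replicate 3, against 1.005 in replicate 1 and 1.03 in replicate 2. Divided by these factors, Fos, Fosb and Jun are highest in replicate 1, while Junb, Jund and Atf3 stay highest in replicate 3. Fosl2 is then lowest in replicate 3 rather than in replicate 2.

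**Figure D3:**
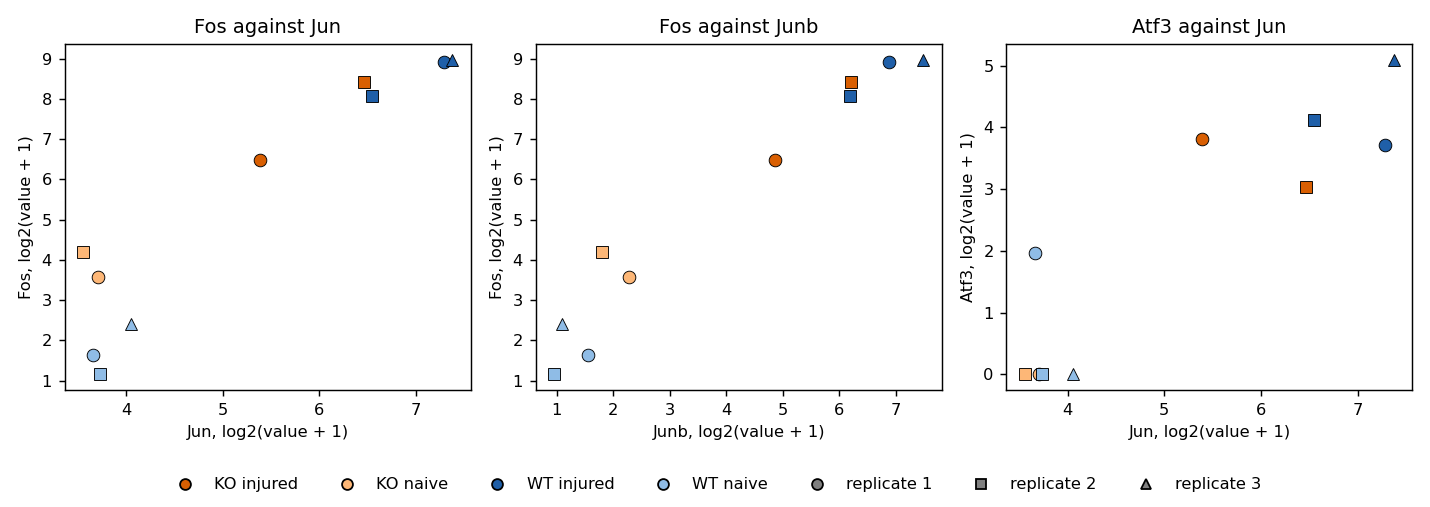
Log2(value + 1) of Fos against Jun, Fos against Junb and Atf3 against Jun in the 10 libraries; colours mark the groups and symbols the replicate number. Injured and naive libraries form separate clusters, and knockout injured replicate 1 lies below the other injured libraries in Fos, Jun and Junb but not in Atf3.

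The composition of AP-1 mRNA differed between injured and naive libraries. Among the Fos family, Fos made up 93.6% and 93.7% of the summed value in knockout injured, 60.1% and 84.7% in knockout naive, 93.8%, 93.9% and 94.9% in wild-type injured, and 36.9%, 18.8% and 65.2% in wild-type naive libraries. The injured libraries of both genotypes thus had almost the same composition, although their sums ranged from 94.9 to 528. The share of Fosl2 was below 2% in every injured library, against 23.8% and 11.1% in knockout naive and 37.4%, 37.8% and 31.7% in wild-type naive libraries. These shares are a description of the values above and were not tested.

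In the Jun family, the share of Jun was between 40.0% and 53.3% in all 10 libraries. Junb held 36.1% and 41.9% in knockout injured, 14.6% and 9.19% in knockout naive, 39.6%, 40.3% and 47.9% in wild-type injured, and 7.77%, 4.08% and 3.48% in wild-type naive libraries. Jund held 11.5% and 7.78% in knockout injured, 39.8% and 50.8% in knockout naive, between 7.81% and 8.15% in wild-type injured, and between 42.6% and 48.6% in wild-type naive libraries. The summed Fos family value was above the summed Jun family value in all 5 injured libraries (ratios of 1.22 and 2.09 in the knockout and 1.72, 1.58 and 1.42 in wild type) and below it in all 5 naive ones (0.69 and 0.765 in the knockout and 0.227, 0.283 and 0.205 in wild type).

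**Figure D4:**
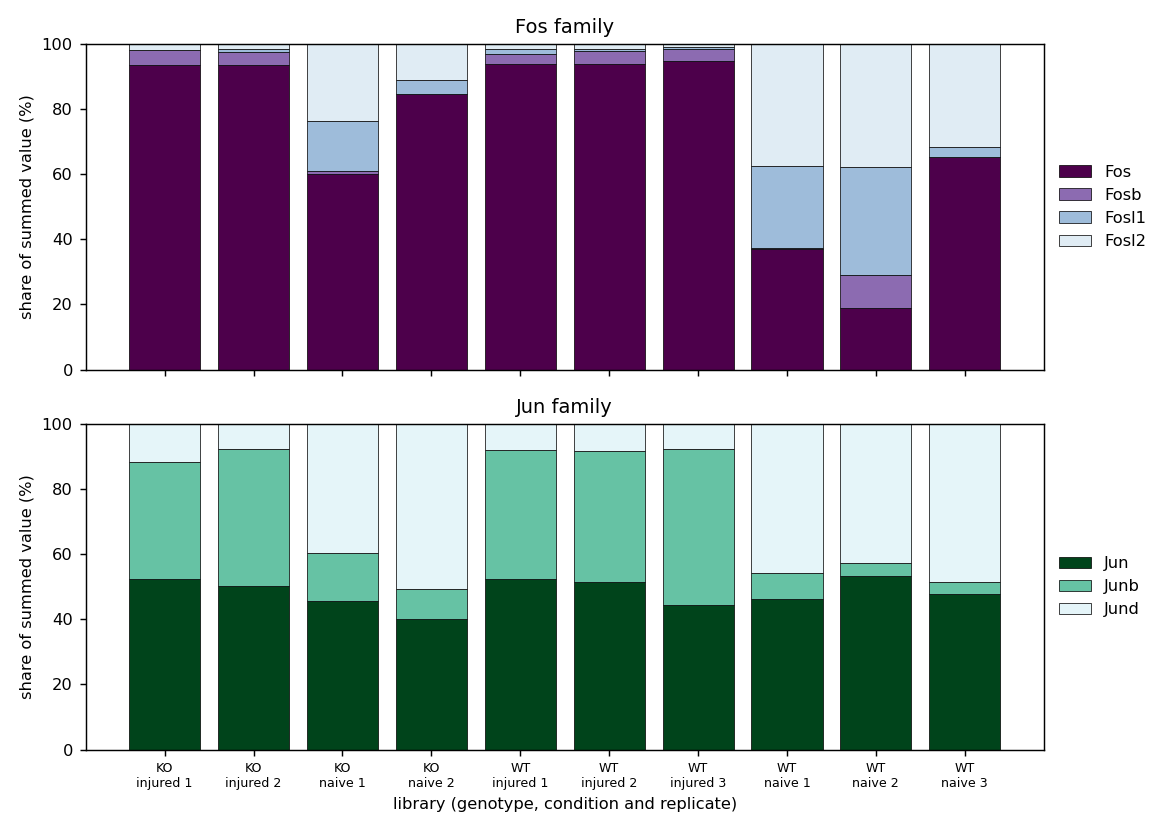
Share of each gene in the summed deposited value of the Fos family (top) and the Jun family (bottom), one bar per library. Fos fills 93.6% to 94.9% of the Fos family in the 5 injured libraries, and Jund is at 11.5% or less of the Jun family there.

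Cpeb1 binds the cytoplasmic polyadenylation element in the 3' ends of mRNAs, and AU-rich elements mark early gene mRNAs for decay. The longest annotated 3' end region after the stop codon (GENCODE M21) was therefore searched on the sense strand for TTTTAT and TTTTAAT, 2 forms of the polyadenylation element, and for the AU-rich pentamer ATTTA and nonamer TTATTTATT. A polyadenylation element was found in 6 of the 8 genes, all but Jund and Atf3, and in 63.0% of 13120 tested genes with such a region. ATTTA was found in all 8, and in 70.6% of tested genes. Fos had 4 copies of ATTTA in 815 bases, a density above that of 93.6% of tested genes, and 3 copies of TTTTAT, 2 of which overlap. Junb had 2 copies of ATTTA in 485 bases and Jun 4 in 1233 bases, densities above those of 90.1% and 82.9% of tested genes, while Fosb, with 1 in 2302 bases, was above 31.1%. The nonamer was found in Fos and Fosl2, as in 8.52% of tested genes.

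The sites below are 30 bases each, given as examples from the 3 members with the highest injured levels. Fos and Fosl2 both carry the nonamer close to a polyadenylation element, overlapping it in Fosl2, and Jun carries 1 of each form of the polyadenylation element. Capitals mark the motif.
Fos, chromosome 12, nonamer: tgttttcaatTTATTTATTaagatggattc
Fos, chromosome 12, polyadenylation element: ccatgaaaacgtTTTTATtgtgttttcaat
Junb, chromosome 8, polyadenylation element: gtgtgtttgactTTTTATtgaatctattta
Jun, chromosome 4, polyadenylation element: agtatataatttTTTTATgttttgtttctg
The polyadenylation element of Junb begins 44 bases before the end of the mRNA, and those of Fos 179, 127 and 122 bases before it. A match to these letters is a description of the sequence and does not show that Cpeb1 binds there. No member, with or without an element, differed between genotypes beyond the threshold.

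Of 18 leucine-zipper partners, 16 were tested and none was called in wild-type injury, although 14 lay above 0 (50.6% of all tested genes), with a median log2 fold change of 0.48 against 0.0092 for all tested genes. Cebpb, a factor of inflammatory and injury responses, had a mean of 32.3 ± 10.7 in wild-type injured and 8.62 ± 2.70 in wild-type naive libraries (SD, n = 3 each; log2 fold change 1.79 ± 0.41, limma adjusted p = 0.0627). Maff, a small Maf protein that binds AP-1-like sites, had a value of 1.82 ± 0.49 in log2 units (limma adjusted p = 0.119). Atf5 had 0.76 ± 0.30 (limma adjusted p = 0.284). In knockout injury the median of the list was 0.036 against -0.087 for all tested genes, again with none called.

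The kinases upstream of Jun were not called in any comparison. Of 15 genes of the JNK cascade, which phosphorylates Jun, 3 lay above 0 in wild-type injury, against 50.6% of all tested genes, with a median of -0.24. Map2k4, a kinase that activates JNK, had a mean of 58.4 ± 5.91 in wild-type injured and 104 ± 19.1 in wild-type naive libraries (SD, n = 3 each; log2 fold change -0.81 ± 0.22, limma adjusted p = 0.134). Map3k12 (DLK), the axonal injury sensor of this cascade, stood at -0.83 ± 0.52 in log2 units (limma adjusted p = 0.509). Of 17 genes on the ERK, SRF and CREB route to the Fos promoter, none was called and 7 lay above 0 in wild-type injury, against the same 50.6%, with a median of -0.12. Elk1, a cofactor of serum response factor, had a mean of 3.80 ± 3.46 in wild-type injured and 22.0 ± 2.78 in wild-type naive libraries (log2 fold change -2.65 ± 0.63, limma adjusted p = 0.0739). Map2k2, a kinase of the ERK cascade, had -0.64 ± 0.25 (limma adjusted p = 0.288).

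Of 9 genes for turnover and coactivation of AP-1 proteins none was called in any comparison, with a median of 0.057 in wild-type injury. Cop1, which directs ubiquitination of Jun, had -0.88 ± 0.33 (limma adjusted p = 0.268). Of 13 genes for proteins that bind AU-rich or related elements none was called in any comparison. Zfp36, which speeds decay of AU-rich mRNAs and is itself an early gene, had a mean of 8.25 ± 3.78 in wild-type injured and 1.74 ± 1.14 in wild-type naive libraries (SD, n = 3 each; log2 fold change 1.78 ± 0.58, limma adjusted p = 0.205). Its relative Zfp36l2 had 1.89 ± 0.54 (limma adjusted p = 0.147).

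Genes described in other cells as targets of AP-1 or Atf3 were called in 1 case. Of 24 listed, 18 were tested, 14 lay above 0 in wild-type injury and the median was 0.88, against 50.6% above 0 and a median of 0.0092 over all tested genes, of which 0.7% were called higher. Hmox1, the haem-degrading enzyme of the antioxidant response, rose, with a mean of 65.9 ± 31.4 in wild-type injured and 15.6 ± 8.17 in wild-type naive libraries (SD, n = 3 each; log2 fold change 2.02 ± 0.39, limma adjusted p = 0.0343). That call held in 10 of 20 alternatives and was lost, among others, on leaving out replicate 1 or 3 of either wild-type group. Vgf, a neuropeptide precursor induced by activity, had 2.22 ± 0.55 (limma adjusted p = 0.0870), and Gadd45a, a growth arrest gene, had 2.15 ± 0.80 (limma adjusted p = 0.260). Timp1, an inhibitor of matrix proteases, was listed at 0 in all wild-type naive libraries and had between 3.68 and 6.82 in the injured ones (limma adjusted p = 0.0913). None of the 18 was called in the knockout, where the median was 0.095.

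Genes whose values followed Fos, Jun and Atf3 over the 10 libraries were named by Pearson's r of log2(value + 1) among the more highly expressed genes that are no members. These libraries form an injured and a naive cluster, so r mainly reflects that split. Closest to Fos were Stmn4 (r = 0.962), a stathmin that binds tubulin, the orphan nuclear receptor Nr4a1 (0.954), Efhd2 (0.952), Ier5l (0.951) and Ass1 (0.951). Closest to Jun were Gem (0.992), a small GTPase that limits calcium channels, Nr4a2 (0.989), Nr4a1 (0.987), the immediate early factor Egr1 (0.983) and Ass1 (0.982). Closest to Atf3 was Gadd45g (0.953), a stress gene, followed by Cav2 (0.932), Prr13 (0.922), the ERK phosphatase Dusp6 (0.920) and Ass1 (0.918). Ass1, the argininosuccinate synthase of arginine synthesis, was the gene shared by all 3 sets, with means of 33.3 in knockout injured, 6.48 in knockout naive, 47.3 in wild-type injured and 6.36 in wild-type naive libraries.

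Other RNAs changed beside the members. The summed value of 11 astrocyte markers was 4390 to 4427 in knockout injured, 3605 to 4703 in knockout naive, 3005 to 5885 in wild-type injured and 2607 to 3220.1 in wild-type naive libraries, and 2 of the 11, Sox9 and Glul, rose in wild-type injury (limma adjusted p = 0.0141 and 0.0264), in 17 and 14 of 20 alternatives. Over the whole list 10 of 11 astrocyte markers lay above 0 in wild-type injury, with a median log2 fold change of 0.94 and 7 at an unadjusted p under 0.05. Of all 15712 tested genes 50.6% lay above 0 in that comparison, and 2184 had an unadjusted p under 0.05 in limma. Fabp7 made most of the astrocyte sum, with 2632, 2178 and 4075 in wild-type injured and 2237, 2106 and 2580 in wild-type naive libraries. The summed value of 13 neuronal markers was 3505 to 4505 in knockout injured, 4622 to 5037 in knockout naive, 2689 to 3554 in wild-type injured and 3990.3 to 4446 in wild-type naive libraries, and none was called. Of these neuronal markers 3 of 13 lay above 0 in wild-type injury, with a median of -0.47 and 7 at an unadjusted p under 0.05. Nuclear-retained RNAs, which would come with cell bodies, summed over 9 genes to 2308 to 3352 in knockout injured, 3020 to 3686 in knockout naive, 6573 to 7691 in wild-type injured and 3147 to 4589 in wild-type naive libraries. Malat1 made most of that sum, with 1236 and 2424 in knockout injured, 1797 and 2582 in knockout naive, 6633, 5818 and 5513 in wild-type injured and 2603, 3440 and 1856 in wild-type naive libraries. Over the 9 genes the median log2 fold change in wild-type injury was -0.21, and 3 lay above 0. Meg3 averaged 615 ± 161 in wild-type injured and 722 ± 86.3 in wild-type naive libraries, and Snhg11 averaged 6.39 ± 5.20 in wild-type injured and 27.9 ± 14.1 in wild-type naive libraries (SD, n = 3 each). Malat1 rose in wild-type injury (limma adjusted p = 0.0455), a call that held in 6 of 20 alternatives, and it was the 1 gene of the list called between genotypes in injured neurites, lower in the knockout. The other lists, of 12 microglial, 10 oligodendrocyte lineage and 10 endothelial and mesenchymal markers, had no called member in either injury comparison. Each library listed between 5 and 10 of the 12 microglial markers at 0, not always the same ones. The part of other cells or of cell bodies in the AP-1 values was not tested.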

How the data were processed

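The submitters' processing notes name STAR 2.4.2a, RSEM 1.2.21 and mm10, and other steps are not given in the sources used. Deposited values were taken here as FPKM, 1 column per library. Divided by 1 factor per library, at least 99.9% of values above 0 had 2 decimals (tolerance 0.001), and that factor times the TMM normalization factor recomputed from the undivided values deviated from 1 by at most 1.38e-07. FPKM and TPM differ by 1 factor per library and cannot be told apart here. Depth was not used.

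Of the gene IDs 44548 matched GENCODE M21. Genes reaching 1 in 2 or more libraries were fitted on log2(value + 1) by limma 3.58.1 under R 4.3.3, as 4 group means over 10 libraries with a mean-variance trend and Benjamini-Hochberg adjustment per comparison at 0.05. It was tested on simulated data with changes set only in genes of higher mean value, so changes of genes near 0 were not covered. Alternatives were another pseudocount, filter, scaling, spread model, set of samples or replicate block, and leaving out each library. Near-identical transcripts were sought with blastn 2.17.0.

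Members, gene lists and tests were chosen with earlier results of these data known. The genes named were all members, up to 4 per list with the smallest p in wild-type injury, the 5 neighbours of Fos, Jun and Atf3, and genes named for a check (Cpeb1, overlapping genes, markers), chosen after their values were seen. Some genes that the rule names are not reported here.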

Additional observations from a re-analysis of the deposited data

How the results depend on the processing

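The number of members called in wild-type injury was 5, 4 with a pseudocount of 0.1 and 3 with no filter; it was 4 to 5 on leaving out a library. In knockout injury it was 1, and 0 with a pseudocount of 0.1, with no filter, with quantile normalization, with no mean-variance trend, with only the groups compared and with the replicate block, 2 with a minimum value of 5, 3 with median-ratio scaling, 3 with the factor multiplied by the column total (a setting chosen after seeing the data), and 0 to 2 on leaving out a library. No member was called in any other comparison under any setting run.

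Over all genes, 149 were called in wild-type injury, 25 with no filter, 77 with no trend, 90 with only the groups compared and 35 to 311 on leaving out a library. In knockout injury 9 were called, 1 with a pseudocount of 0.1, 33 with no filter, 4 with quantile normalization, 1 with no trend, 0 with only the groups compared, 5 with the replicate block, 14 with the factor times column total and 0 to 20 on leaving out a library. In naive neurites 23 were called between genotypes, and 52 with no filter. In injured neurites it was 41, and 24 to 57 on leaving out a library. In the interaction 0 were called, 13 with no filter, 3 with no trend and 0 to 2 on leaving out a library.

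Directions that turned belonged to values close to 0 or to genes at low values, none called. Fosl2 in knockout injury was -0.0070, and 0.017 with a pseudocount of 5, 0.096 with quantile normalization, 0.068 with median-ratio scaling, 0.041 with the factor times column total and -0.61 to 0.59 on leaving out a library. On leaving out a library, Fosl1 and Jund in knockout injury ranged from -1.41 to 0.71 and from -0.38 to 0.16, Fosb, Fosl1 and Jund between genotypes in naive neurites from -0.27 to 0.097, from -0.17 to 0.84 and from -0.19 to 0.16, Fosl2 between genotypes in injured neurites from -1.16 to 0.039, and the interactions of Fosb and Atf3 from -1.44 to 0.089 and from -0.89 to 0.16. With the replicate block the naive genotype difference of Jund was 0.17, and with a pseudocount of 0.1 the Atf3 interaction was 0.69. The causes were not tested.

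Libraries of the same replicate number did not deviate together, with correlations of their deviations from the group means between -0.048 and 0.041, so the numbers were not treated as pairs. With the replicate block 146 genes were called in wild-type injury, the 5 members included, and Junb was not called in the knockout (limma adjusted p = 0.0956). The interaction was not run with only its groups, since it uses all of them. Groups of 2 or 3 libraries limit all comparisons, and the number of reads behind low values, such as those of Fosl1, is not known.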
